A study of Mus musculus with 15 samples.

Results

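The motor pool of the extensor digitorum longus (EDL), a muscle that extends the toes, was compared with 4 other hind-limb motor pools of the mouse. It was represented by 3 of the 15 libraries in the study, chosen by their muscle label. The other 12 libraries came from the pools of the tibialis anterior (TA), the peroneus longus (PL), the gastrocnemius muscle of the calf (GS) and small muscles within the foot (IF), with 3 libraries each. All animals were wild type and 6 days old, and every muscle had been injected at postnatal day 4 with the B subunit of cholera toxin carrying a red dye, which is carried back along the axon to the cell body. Labelled motor neurons were then cut from spinal cord sections by laser, and each library pooled 30 to 40 cells from 2 to 5 animals. The labels call the libraries biological replicates without tying any to named animals, so the p-values measure the spread between these pools of cells. The labels give no strain, sex or other treatment.

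A motor pool is the group of motor neurons that supplies one muscle, and its cells lie together in the ventral horn. Limb motor neurons form the lateral motor column, whose identity depends on Foxp1, a forkhead factor that works with the Hox proteins. Within the column, neurons with Isl1 lie medially and neurons with Lhx1 lie laterally. Motor neurons also make neuropeptides, which are cut from larger precursors and released beside acetylcholine.

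Raw counts summed to between 7085025 and 8411260 in the EDL libraries and between 4417114 and 8488368 in the 12 others. Genes with at least 1 read numbered 14915 ± 638.7 in EDL (SD, n = 3). PL 2 and PL 3 stood apart: 25.74% and 29.21% of the 14340 genes tested had no read there, a share that ran from 0.7322% to 13.7% across all other libraries. Spearman correlations between EDL libraries were 0.8452 to 0.8904, within the range of those between EDL and GS libraries, 0.8055 to 0.9006. Levels below are in CPM, read counts scaled to a common library size by the TMM method of edgeR. The labelled cell type was checked with 9 motor neuron markers, which all had reads in EDL. Chat, the enzyme that makes acetylcholine, was at 66.2, 153 and 123 CPM in EDL, and the 9 markers together were at 39570 to 59880 CPM in EDL and 30710 to 118300 CPM in the 12 other libraries, mostly from the neurofilament genes Nefm and Nefl. None of the 9 was called between EDL and the others, and 8 had a log2 fold change below 0. The marker sums of oligodendrocytes, astrocytes, interneurons and blood lay within the range of the other pools in all 3 EDL libraries. In bulk samples such as these, fewer cells with a transcript and less transcript per cell cannot be told apart.

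The comparison of EDL with the mean of the 4 other pools asked what sets the neurons of this toe extensor apart. Few genes passed. Nts, the precursor of neurotensin, Ly6a, a surface antigen, and Dcn, the matrix proteoglycan decorin, were higher in EDL, and Foxp1, the somatostatin precursor Sst, the heparan sulfate enzyme Ndst4, Pcp4l1 and Fgf13 were lower. By edgeR's quasi-likelihood F-test with Benjamini-Hochberg adjustment over all 14340 genes (threshold 0.05), 14 genes were called, which is 0.0976% of those tested. Of these, 9 were higher in EDL (0.0628%) and 5 were lower (0.0349%), and 920 genes had an unadjusted p under 0.05. All 3 EDL libraries lay above the 12 others for 0.418% of genes and below them for 0.237%. The median log2 fold change of all genes was 0.06. A fold here is EDL over the mean of the 4 pools' log levels, with its standard error, so a pool near 0 weighs on it. The number of calls depended on single libraries. It was 2 without EDL 2, 8 without EDL 1 or EDL 3, 9 without GS 2, IF 1 or IF 2, 24 without PL 2 and 25 without PL 1. Nts and Ly6a kept their call without each of the 15 libraries, and the other 12 genes lost theirs without at least 1.

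**Figure D1:**
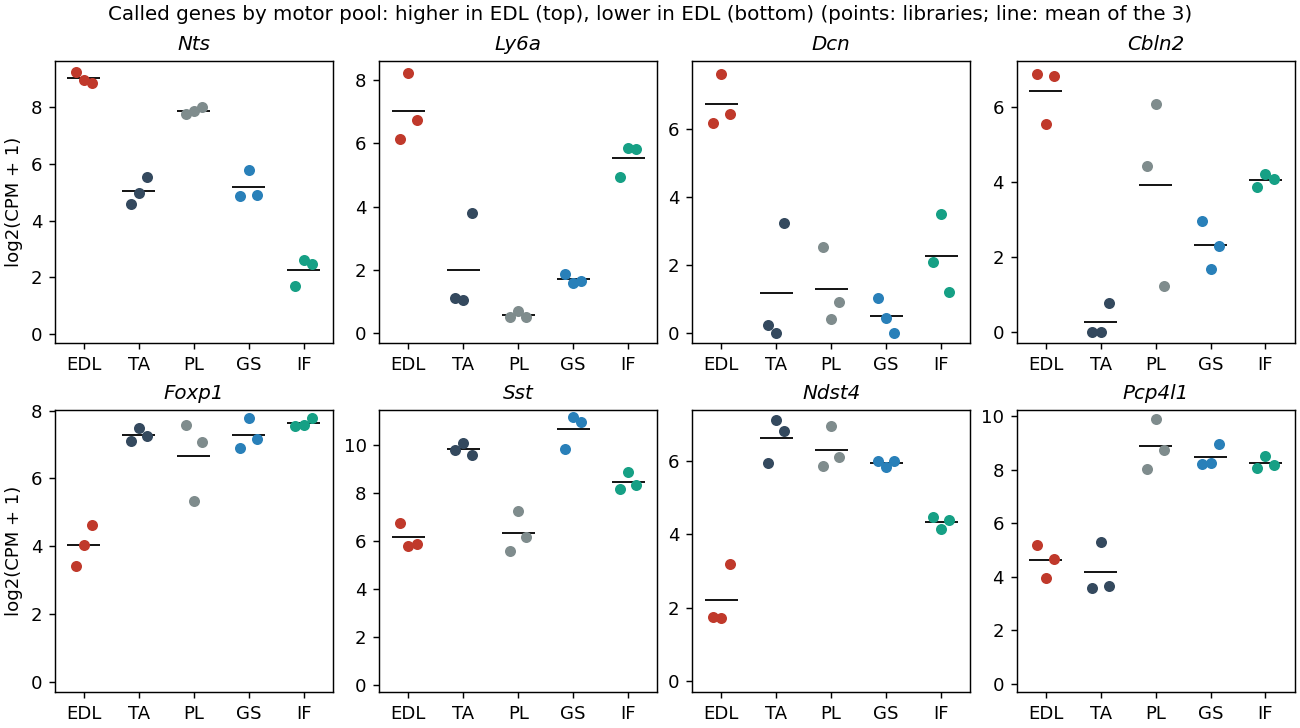
Levels of 8 genes called between EDL and the mean of the 4 other pools, on a log2(CPM + 1) axis; each point is a library, each line the mean of a pool's 3 libraries, with EDL at the left. The EDL points of Nts, Ly6a and Dcn lie above all others, those of Foxp1 and Ndst4 lie below all others, and those of Cbln2, Sst and Pcp4l1 overlap 1 other pool each.

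Nts had the smallest p in the comparison. Neurotensin is a short peptide, released by neurons and gut cells, that acts on the receptors Ntsr1 and Ntsr2 and on the sorting receptor Sort1. The gene (ENSMUSG00000019890) lies on the minus strand of chromosome 10 from 101944394 to 101953053 on mm9. Nts was at 599, 486 and 458 CPM in EDL, against 23.1, 30.2 and 45.2 in TA, 214, 232 and 251 in PL, 28.1, 53.3 and 28.6 in GS, and 2.24, 5.12 and 4.49 in IF. The EDL libraries lay above every other library, PL came next without overlapping any other pool, TA and GS overlapped each other, and IF was lowest. The log2 fold change was 3.99 ± 0.27 (edgeR adjusted p = 1.91e-07). Against single pools it was 3.97 ± 0.45 over TA, 1.14 ± 0.40 over PL, 3.81 ± 0.45 over GS and 7.02 ± 0.52 over IF. The difference from PL was not called (edgeR adjusted p = 0.220), although the libraries did not overlap.

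No receptor of the peptide was called. Of the 7 tested genes of the neurotensin system, which covers the precursor, the receptors and the peptidases that break it down, Nts alone was called. Ntsr1 had no read in EDL 1 and EDL 2 and was at 1.88 CPM in EDL 3, against 0 to 18.2 CPM in the other libraries. Ntsr2 was at 32.0, 8.83 and 12.4 CPM in EDL, inside the range of 0 to 63.6 CPM elsewhere. Sort1 was at 218, 246 and 220 CPM in EDL and at 54.9 to 321 CPM in the other 12, and was not called (log2 fold change 0.69 ± 0.31, edgeR adjusted p = 0.735).

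Sst, the precursor of the inhibitory peptide somatostatin, was the other peptide gene called, in the opposite direction (mm9 chromosome 16, 23889667 to 23890931, minus strand). It was at 108, 55.3 and 58.0 CPM in EDL, against 897, 1089 and 779 in TA, 47.3, 154 and 71.3 in PL, 936, 2342 and 2005 in GS, and 287, 467 and 323 in IF. EDL and PL overlapped as the low pools, and the 9 libraries of the other 3 pools all lay above both. Sst fell by 2.70 ± 0.40 on the log2 scale against the 4 pools (edgeR adjusted p = 0.00826), with -3.64 ± 0.46 against TA, -4.58 ± 0.48 against GS, -2.28 ± 0.44 against IF and -0.29 ± 0.42 against PL. The call was lost without EDL 2 (edgeR adjusted p = 0.0765) or EDL 3 (0.0668). Of the somatostatin receptors, 4 of 5 were tested and none was called. Sstr2, which was not tested, was scarce in every pool, with no read in EDL, 1 in TA, 11 in PL, 5 in GS and 32 in IF.

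The promoters of these 2 oppositely placed peptide genes are shown because both hold a match to TGACNTCA, the letters of the cyclic AMP response element with 1 base left free. Sst holds TGACGTCA, the element itself, and Nts holds TGACATCA. The sequences are the 250 bases before the gene start in RefSeq, on GRCm38.p6, at chr10:102490419-102490668 for Nts and chr16:23890845-23891094 for Sst, both minus strand and written 5′ to 3′. Capitals mark matches to TGACNTCA and to TGANTCA, the site of AP-1 factors.
Nts: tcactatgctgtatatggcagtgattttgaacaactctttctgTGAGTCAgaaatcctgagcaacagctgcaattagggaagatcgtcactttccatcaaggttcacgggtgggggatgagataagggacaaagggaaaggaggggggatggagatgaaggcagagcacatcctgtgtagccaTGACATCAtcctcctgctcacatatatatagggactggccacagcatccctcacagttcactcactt
Sst: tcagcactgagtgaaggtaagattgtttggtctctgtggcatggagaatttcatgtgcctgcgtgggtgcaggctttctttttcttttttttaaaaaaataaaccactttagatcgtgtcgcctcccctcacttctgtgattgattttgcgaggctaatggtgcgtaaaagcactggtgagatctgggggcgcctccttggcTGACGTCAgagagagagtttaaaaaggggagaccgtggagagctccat
On both strands, TGACNTCA was found in 7.49% of 32851 promoter windows of this length and TGANTCA in 6.75%. Of the 14 called genes, 7 had a window. Nts and Sst held TGACNTCA, and Nts and Fgf13 held TGANTCA. The exact letters TATAAA, a form of the TATA box, were in 12.4% of windows and in none of the 7. Other forms of that box were not searched. The E-box CANNTG was in 6 of the 7 and in 66.2% of all windows. The TGACNTCA match lies 67 to 60 bases before the start of Nts and 48 to 41 before that of Sst. These are letter matches and no measure of binding.

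Peptide precursors were compared with each other per kilobase of gene model, since longer transcripts give more reads. In EDL, Nts had the highest mean of 25 precursors in the table, at 437 ± 63.4 CPM per kilobase (SD, n = 3), with Calca, which encodes CGRP, next at 375 ± 65.3 and its relative Calcb at 193 ± 60.6. The Nts and Calca means differed by less than their SDs, and in EDL 3 Calca was the higher, at 434 against 389 CPM per kilobase. Sst was at 123 ± 49.8 CPM per kilobase in EDL, near Cck, the cholecystokinin precursor, at 119 ± 28.0. In TA, GS and IF, Sst had the highest mean, at 1538 ± 261.5, 2940 ± 1226 and 599 ± 159 CPM per kilobase, and Nts ranked sixth in TA and GS. In PL, Calca led at 409 ± 214 and Nts stood at 198 ± 15.5. Of 26 listed precursors, 18 were tested, and 1 was called higher and 1 lower in EDL, Nts and Sst. Their median log2 fold change was 0.26, against 0.06 for all genes.

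**Figure D2:**
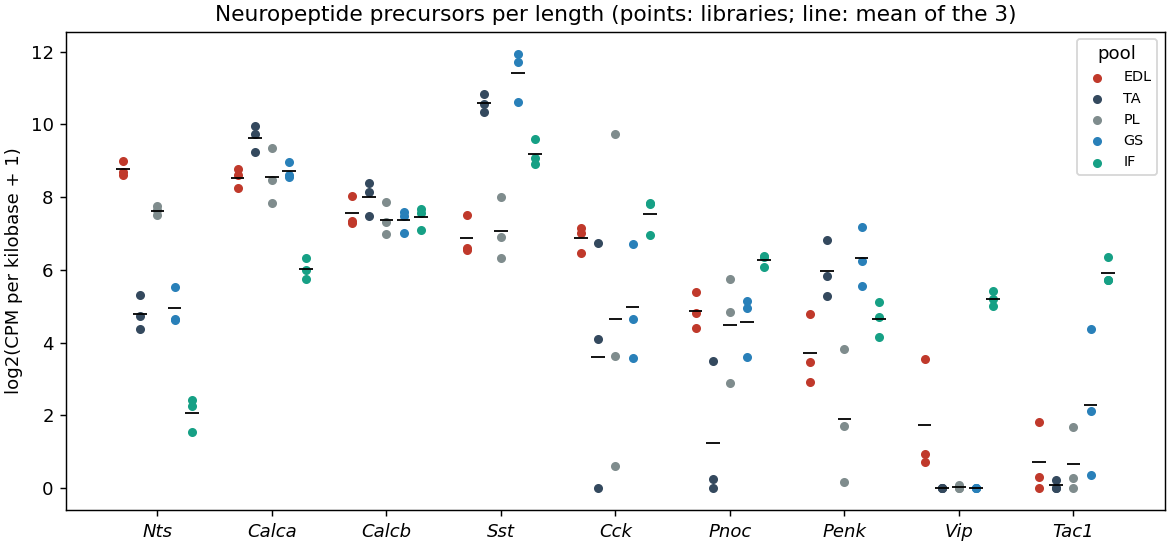
Levels of 9 neuropeptide precursors per kilobase of gene model, on a log2(CPM per kilobase + 1) axis; each point is a library, each line the mean of a pool's 3 libraries, with EDL at the left of each group. In EDL, Nts has the highest mean, though Calca lies above it in EDL 3, and Sst is low, while in TA and GS, Sst has the highest mean.

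Foxp1 was the 1 called gene among 17 tested factors of motor column and pool identity (18 listed). On mm9 it spans 98875332 to 99216527 of chromosome 6, minus strand. It was at 9.73, 15.4 and 23.6 CPM in EDL, against 136, 180 and 151 in TA, 191, 39.0 and 135 in PL, 117, 219 and 143 in GS, and 187, 189 and 221 in IF. All 3 EDL libraries lay below all 12 others, of which PL 2 was the nearest. Foxp1 fell by 3.27 ± 0.49 on the log2 scale (edgeR adjusted p = 0.00826). The pairs gave -3.26 ± 0.54 against TA, -3.30 ± 0.54 against GS and -3.62 ± 0.55 against IF, all called, and -2.90 ± 0.53 against PL, which was not (edgeR adjusted p = 0.0551). The call against the 4 pools was lost without EDL 1 (edgeR adjusted p = 0.0684) or EDL 2 (0.0765), with log2 fold changes of -3.01 and -3.23. The related forkhead genes Foxp2, at 1.51 to 4.07 CPM in EDL, and Foxp4, at 5.10 to 24.3 CPM, overlapped the other pools.

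Isl1, the factor of medial column neurons, had 5 reads in EDL, all in EDL 2, and none in TA or PL. GS held 1228 reads and IF 2360. Lhx1, the factor of lateral column neurons, was at 2.20, 21.8 and 15.1 CPM in EDL, against no read in GS, 0.713, 0 and 2.17 CPM in IF, 5.43, 9.57 and 0 in TA, and 16.4, 361 and 0.221 in PL. Lhx1 was not called (edgeR adjusted p = 0.737), and its spread between libraries of 1 pool was wide. Isl2 and Mnx1, which mark motor neurons in general, were at 4.06 to 25.1 and 5.997 to 11.2 CPM in EDL, inside the range elsewhere. Aldh1a2, which makes retinoic acid, was at 371, 382 and 341 CPM in EDL, overlapping TA and GS, below PL at 545, 906 and 786, and above IF at 3.77, 4.37 and 1.45.

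No Hox gene or Hox cofactor was called against the 4 pools, of 20 tested and 25 listed. Meis2, a Hox cofactor of the TALE class, came nearest, at 182, 232 and 194 CPM in EDL, against 133, 125 and 168 in TA, 101, 236 and 35.7 in PL, 41.2, 11.2 and 24.5 in GS, and 3.36, 11.8 and 8.68 in IF (log2 fold change 2.22 ± 0.43, edgeR adjusted p = 0.0524). EDL overlapped PL 2 alone. Hoxc10, a gene of lumbar segments, was at 231, 186 and 143 CPM in EDL, below TA at 475, 338 and 295, overlapping PL and GS, and above IF at 8.86, 15.2 and 11.7.

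Ly6a, also known as Sca-1, encodes a small antigen tied to the cell surface by a lipid anchor. The gene (ENSMUSG00000075602) lies on the minus strand of chromosome 15 from 74825308 to 74828065 on mm9. It was at 69.2, 297 and 107 CPM in EDL, against 29.6, 56.7 and 56.1 in IF, 1.19, 1.08 and 12.8 in TA, 0.433, 0.639 and 0.441 in PL, and 2.63, 2.04 and 2.12 in GS. EDL lay above every other library, with IF below it and apart from TA, PL and GS. The log2 fold change was 5.27 ± 0.57 (edgeR adjusted p = 0.000170). The differences from PL (8.28 ± 1.16) and GS (6.11 ± 1.02) were called, and those from TA (4.96 ± 0.96, edgeR adjusted p = 0.0638) and IF (1.73 ± 0.83) were not. Of 9 tested genes of the Ly6 and uPAR family (18 listed), Ly6a was the 1 called. Ly6c1, a near neighbour in sequence, was at 15.2, 30.6 and 9.16 CPM in EDL and at most 4.09 CPM in the others, also without overlap, but was not called (edgeR adjusted p = 0.198). Reads shared between such similar genes could be split in ways the sources used here do not state, so the values of Ly6a and Ly6c1 are less certain than those of single-copy genes.

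Dcn and Col5a2 are genes of the extracellular matrix. Dcn encodes decorin, a small proteoglycan that binds collagen fibrils, and Col5a2 encodes a chain of type V collagen. On mm9, Dcn lies on chromosome 10 from 96942245 to 96980778 (plus strand) and Col5a2 on chromosome 1 from 45431166 to 45560128 (minus strand). Dcn was at 70.9, 195 and 86.7 CPM in EDL, against 0.170, 0 and 8.44 in TA, 4.76, 0.319 and 0.882 in PL, 1.02, 0.340 and 0 in GS, and 3.26, 10.2 and 1.30 in IF. The groups did not overlap, and the log2 fold change was 5.92 ± 0.92 (edgeR adjusted p = 0.00899). The call was lost without EDL 2 (edgeR adjusted p = 0.0907, log2 fold change 5.34). No single pair was called for Dcn. Col5a2 was at 4.63, 3.73 and 9.16 CPM in EDL and at most 1.02 CPM elsewhere, with no read in TA or PL, so it was at least 32.8-fold higher in EDL than in TA and at least 32.3-fold higher than in PL, counting 3 reads over the group as the floor. It was called (edgeR adjusted p = 0.0448), but lost its call without any 1 of the 15 libraries (edgeR adjusted p up to 0.193).

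Dcn and Col5a2 are also made by fibroblasts, so other genes of those cells are given beside them. Of 9 listed markers of fibroblasts and meninges, 5 were tested and Dcn was the 1 called. The 9 summed to 85.8, 211 and 104 CPM in EDL and to 2.55 to 55.9 CPM in the 12 others. Without Dcn the sum was 14.9, 15.2 and 17.2 CPM in EDL and 2.21 to 50.8 CPM in the others, so it lay within their range. Col1a1 was at 0, 1.58 and 0 CPM in EDL, Col3a1 at 0, 0.226 and 1.25, and Lum at 3.48, 0 and 0, whereas Col1a2 was at 9.04, 10.9 and 15.1, inside its range of 0 to 28.5 elsewhere. Endothelial cells can make Ly6a, and their 9 markers summed to 15.3, 57.7 and 54.3 CPM in EDL and 15.6 to 684 CPM in the others. The highest value was that of PL 2 alone, with TA 2 next at 104 CPM. The median of the 12 others was 33.3 CPM, with EDL 2 and EDL 3 above it and EDL 1 below it. None of the 9 was called, 6 had a log2 fold change above 0, and their median was 1.01 against 0.06 for all genes. Among 6 tested small leucine-rich proteoglycans, Dcn was the 1 called. The part of other cell types in the levels of Dcn, Col5a2 and Ly6a was not tested.

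**Figure D3:**
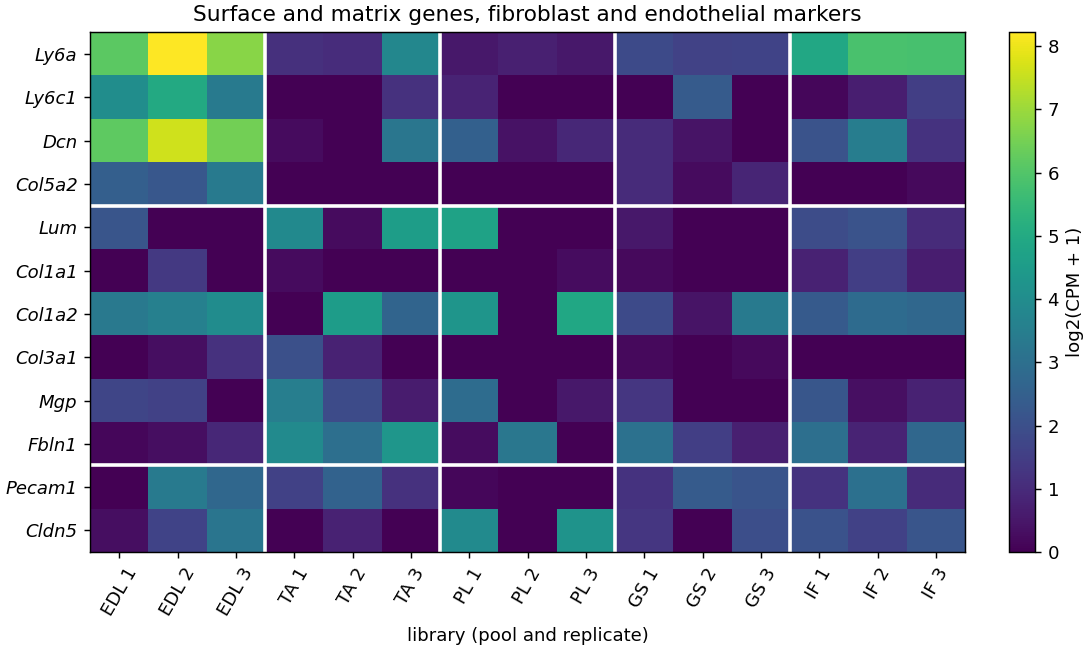
Levels of 12 genes in the 15 libraries, on a colour scale of log2(CPM + 1), with EDL at the left and white lines between pools and between gene groups. Ly6a, Ly6c1, Dcn and Col5a2 are brighter in the 3 EDL columns than elsewhere, and the other fibroblast markers do not share that pattern; of the 2 endothelial markers, Pecam1 is highest in EDL 2, at 9.16 CPM.

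Ndst4 and Ext2 act on heparan sulfate, the sugar chain that holds growth factors and guidance cues at the cell surface. Ndst4 removes acetyl groups and adds sulfate, while Ext2 works with Ext1 to extend the chain. Their mm9 positions are 125107012 to 125427905 on chromosome 3 for Ndst4 (plus strand) and 93535788 to 93662726 on chromosome 2 for Ext2 (minus strand). Ndst4 was at 2.32, 2.26 and 8.03 CPM in EDL, from 104 reads, against 60.2, 137 and 111 in TA, 56.3, 123 and 68.2 in PL, 62.6, 56.2 and 62.5 in GS, and 21.0, 16.5 and 19.8 in IF. All 3 EDL libraries lay below all others, and IF was the nearest pool. Ndst4 fell by 3.73 ± 0.62 on the log2 scale (edgeR adjusted p = 0.0172), and lost its call without EDL 1 (edgeR adjusted p = 0.111) or EDL 2 (0.109). It was called against TA, PL and GS, and not against IF (-2.18 ± 0.63, edgeR adjusted p = 0.414).

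Ext2 was at 20.6, 536 and 2281 CPM in EDL, against 14.8, 79.2 and 354 CPM as the lowest, median and highest of the 12 others. EDL 1 lay among the other pools, and EDL 3 held 80.4% of the EDL level. The call (log2 fold change 3.37 ± 0.60, edgeR adjusted p = 0.0259) was lost without EDL 3, where the log2 fold change was 1.60 and the edgeR adjusted p was 0.716. It was also lost without any 1 of EDL 2, TA 2, TA 3, GS 1, GS 2, IF 1 and IF 2, with edgeR adjusted p of 0.0525 to 0.0765. Extl3, a relative that starts the chain, was at 86.4, 89.5 and 2165 CPM in EDL, again highest in EDL 3, and was not called (edgeR adjusted p = 0.115). Of 21 tested heparan sulfate enzymes, 1 was called higher and 1 lower, and their median log2 fold change was 0.10 against 0.06 for all genes. Of the other 3 members of the Ndst family, Ndst1 was at 79.6, 97.3 and 82.4 CPM in EDL, and all 3 overlapped the other pools.

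Pcp4l1, which encodes a small protein with a calmodulin-binding motif, was low in both EDL and TA (mm9 chromosome 1, 173103393 to 173126400, minus strand). It was at 35.8, 14.6 and 24.3 CPM in EDL, against 10.8, 37.9 and 11.6 in TA, 259, 958 and 425 in PL, 299, 307 and 492 in GS, and 265, 367 and 287 in IF. EDL and TA overlapped, and the 9 other libraries lay far above both. Pcp4l1 fell by 2.91 ± 0.50 on the log2 scale against the 4 pools (edgeR adjusted p = 0.0217), with 0.31 ± 0.52 against TA alone. The call was lost without EDL 1 (edgeR adjusted p = 0.0651), EDL 2 (0.153) or EDL 3 (0.135).

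Fgf13 encodes a fibroblast growth factor homologous factor, which stays in the cell and binds voltage-gated sodium channels (mm9 chromosome X, 56315322 to 56821249, minus strand). It was at 84.5, 145 and 79.9 CPM in EDL, against 294, 308 and 453 in TA, 336, 204 and 280 in PL, 194, 221 and 368 in GS, and 485, 466 and 518 in IF. EDL lay below all 12 others. Fgf13 fell by 1.69 ± 0.31 on the log2 scale (edgeR adjusted p = 0.0360). Without any 1 of EDL 1, EDL 2, EDL 3, TA 2, TA 3, GS 2, GS 3, IF 1, IF 2 and IF 3 the call was lost, with edgeR adjusted p between 0.0505 and 0.252. Fgf11, Fgf12 and Fgf14, the relatives of Fgf13, overlapped the other pools, as did the sodium channel genes, and none of the other 15 tested genes of that list was called.

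Cbln2 encodes cerebellin 2, a secreted protein that bridges synapses. It was at 118, 46.3 and 113 CPM in EDL, against 0, 0 and 0.703 in TA, 20.5, 67.4 and 1.32 in PL, 6.72, 2.21 and 3.92 in GS, and 13.6, 17.7 and 15.9 in IF. EDL 2 lay below PL 2, and otherwise EDL was above all. The log2 fold change was 4.28 ± 0.73 (edgeR adjusted p = 0.0212), and the call was lost without any 1 of EDL 1, EDL 2, EDL 3, GS 2, IF 1, IF 2 and IF 3, with edgeR adjusted p between 0.0525 and 0.111.

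The 3 other genes called higher in EDL had no read in TA, so their fitted folds have no size. On mm9 they lie on chromosome 8 from 108779159 to 108789820 (Smpd3, minus strand), chromosome 11 from 58028530 to 58036283 (Irgm2, plus strand) and chromosome 16 from 87553575 to 87595582 (ORF63, plus strand). Smpd3, a neutral sphingomyelinase, was at 12.4, 899 and 0.753 CPM in EDL and 0 to 8.19 CPM elsewhere, with 98.6% of the EDL level in EDL 2. EDL 3 lay among the other pools. Its call (edgeR adjusted p = 0.00317) was lost without EDL 2 (edgeR adjusted p = 0.665). Irgm2, an interferon-induced GTPase, was at 29.3, 27.6 and 47.4 CPM in EDL, against 0.866, 0.958 and 33.8 in PL, 11.9, 9.997 and 6.37 in IF, and 1 read in GS, and overlapped PL 3 alone. It was at least 196-fold higher in EDL than in TA (edgeR adjusted p = 0.0217 against the 4 pools), and lost its call without any 1 of the 3 EDL libraries, GS 1, GS 2 or the 3 IF libraries, with edgeR adjusted p between 0.0582 and 0.108. ORF63 was at 14.5, 35.9 and 3.26 CPM in EDL and at most 1.45 CPM elsewhere, with no overlap, and was at least 105-fold higher than in TA and at least 116-fold higher than in GS (edgeR adjusted p = 0.00833 against the 4 pools, and 0.0862 without EDL 2).

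Comparing EDL with single pools asked which of these differences hold against each muscle, and the 4 pairs share the same EDL libraries. Against TA, the neighbouring ankle flexor, 13 genes were called (0.0907%), 7 higher (0.0488%) and 6 lower (0.0418%) in EDL. Nts had the smallest p. All 3 EDL libraries lay above the TA libraries for 9.02% of the genes tested and below them for 6.44%. Hs3st4, a heparan sulfate sulfotransferase, was at 87.8, 82.3 and 68.1 CPM in EDL, against 4.41, 3.25 and 0.879 in TA (log2 fold change 4.79 ± 0.75, edgeR adjusted p = 0.0171). Unc5d, a netrin receptor, was at 133, 85.8 and 96.2 CPM in EDL, against 0.848, 13.0 and 5.98 in TA (3.99 ± 0.70, edgeR adjusted p = 0.0310). Neither set of libraries overlapped. TA was the lowest pool for both genes. Mean Hs3st4 was 79.4 CPM in EDL, 147 in PL, 97.0 in GS and 109.5 in IF. Mean Unc5d was 105 CPM in EDL, 189 in PL, 46.6 in GS and 211 in IF. Cbln2 (8.52 ± 1.51, edgeR adjusted p = 0.0310) was also higher, and Adrbk2, a kinase of receptors, had 955 reads in EDL against 2 in TA, a ratio of scaled levels of 321 (95% counting interval 88.7 to 2657). TA was again the lowest pool, as mean Adrbk2 was 37.1 CPM in EDL, 30.5 in PL, 15.8 in GS and 40.7 in IF.

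Lower in EDL than in TA were Sst, Ndst4 and Foxp1, given above, the adhesion gene Ncam2 and the secreted BMP antagonist Sostdc1. Ncam2 was at 254, 222 and 195 CPM in EDL, against 996, 660 and 777 in TA, with no overlap (-1.86 ± 0.30, edgeR adjusted p = 0.0178). TA and PL were the high pools, as mean Ncam2 was 224 CPM in EDL, 650 in PL, 153.5 in GS and 193 in IF. Sostdc1 had no read in EDL, against 89.9, 27.6 and 25.1 CPM in TA, so it was at least 409-fold higher in TA (edgeR adjusted p = 0.0293). TA was the highest pool for Sostdc1, which had 9 reads in PL, 232 in GS and 109 in IF. The count for TA was 2 without EDL 2, 3 without EDL 1 or TA 1, 5 without EDL 3 or any IF library, 6 without GS 3, 8 without TA 2, 31 without PL 2 and 32 without PL 3. Of the 10 genes named for this pair, Nts and Sst kept their call without each single library, while Ndst4 lost it without 2, Ncam2 without 4, Hs3st4 without 5, Foxp1 and Sostdc1 without 8, Cbln2 and Unc5d without 9 and Adrbk2 without 12, with edgeR adjusted p up to 0.227.

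Against PL, 7 genes were called (0.0488%), 2 higher (0.0139%) and 5 lower (0.0349%) in EDL, while 2177 had an unadjusted p under 0.05. The EDL libraries lay above all PL libraries for 10.2% of genes and below them for 4.37%. Ly6a was higher, as was Raly, an RNA-binding protein, at 60.8, 34.1 and 94.1 CPM in EDL against 1.95, 0 and 0 in PL (6.32 ± 1.12, edgeR adjusted p = 0.0429). PL was the lowest pool for Raly, with means of 63.0 CPM in EDL, 63.7 in TA, 35.9 in GS and 27.8 in IF. Pcp4l1 (-4.46 ± 0.59, edgeR adjusted p = 0.00691), Ndst4 (-4.29 ± 0.68, edgeR adjusted p = 0.0196) and Dpp10, a potassium channel partner, at 24.1, 28.3 and 13.5 CPM in EDL against 169, 117 and 393 in PL (-3.36 ± 0.54, edgeR adjusted p = 0.0196), were lower. So were AI593442, at 496, 486 and 511 CPM in EDL against 1041, 2501 and 2527 in PL (-2.02 ± 0.33, edgeR adjusted p = 0.0196), and 1 gene with a clone name. Dpp10 was also low in TA, at a mean of 29.4 CPM against 22.0 in EDL. Without both PL 2 and PL 3, none of the 7 was called and 2 other genes were, with PL 1 left alone and assumed to vary like the other pools. The count was 0 without EDL 2, 2 without EDL 1, 4 without EDL 3 and 1778 without PL 1. None of the named genes of this pair kept its call without each single library, with edgeR adjusted p up to 0.176.

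Against GS, the calf muscle that extends the ankle, 10 genes were called (0.0697%), 4 higher (0.0279%) and 6 lower (0.0418%) in EDL. The EDL libraries lay above those of GS for 6.16% of genes and below them for 5.46%. Besides Nts and Ly6a, the granin Scg2 was at 730, 413 and 465 CPM in EDL, against 57.0, 108 and 126 in GS (2.47 ± 0.37, edgeR adjusted p = 0.00834), and the adhesion molecule Alcam at 975, 621 and 398 CPM in EDL, against 154, 168 and 118 in GS (2.18 ± 0.32, edgeR adjusted p = 0.00834). Neither overlapped. Isl1 fell by 8.29 ± 1.27 on the log2 scale (edgeR adjusted p = 0.0187), on 5 reads in EDL, and Sst, Pcp4l1 (-3.88 ± 0.57), Ndst4 (-3.84 ± 0.67) and Foxp1 were lower too. Btbd11 was at 54.2, 42.7 and 45.7 CPM in EDL, against 207, 437 and 254 in GS (-2.66 ± 0.41, edgeR adjusted p = 0.00982). The count was 3 without GS 2, 5 without any 1 EDL library, 6 without GS 1 and 20 without PL 3. Nts and Sst kept their call without each single library, and the other 8 lost theirs without between 2 and 8 libraries, with edgeR adjusted p up to 0.357.

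Against IF, 29 genes were called (0.202%), 15 higher (0.105%) and 14 lower (0.0976%) in EDL, the most of the 4 pairs. EDL lay above IF in all libraries for 11.7% of genes and below for 13.5%. Nts (7.02 ± 0.52) and Aldh1a2 (6.82 ± 0.52) both had an edgeR adjusted p of 5.93e-07. Meis2 (4.68 ± 0.71, edgeR adjusted p = 0.00448), Hoxc10 (3.97 ± 0.54, edgeR adjusted p = 0.00258) and Sox6, a SoxD factor at 96.7, 230 and 128 CPM in EDL against 7.43, 4.50 and 8.68 in IF (4.46 ± 0.61, edgeR adjusted p = 0.00258), were higher in EDL. So were Calca, at 572, 451 and 642 CPM in EDL against 93.7, 116 and 78.3 in IF (2.53 ± 0.36), the semaphorin receptor subunit Plxna2 (3.04 ± 0.45), Alcam (2.30 ± 0.33), Scg2 (2.39 ± 0.37) and the adrenergic receptor Adra1b, at 98.6, 71.2 and 57.9 CPM in EDL against 3.87, 5.37 and 2.02 in IF (4.33 ± 0.77, edgeR adjusted p = 0.0180). None of these overlapped between EDL and IF. For Calca and Adra1b, IF was the lowest pool, and EDL overlapped PL and GS. Scg2 and Alcam were also low in GS, at means of 97.0 and 147 CPM, and highest in PL. PL was the highest pool for Plxna2 as well, at a mean of 840 CPM against 355 in EDL.

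Lower in EDL than in IF were Crabp2, a retinoic acid binding protein, and Reg3b, a secreted lectin, which had no read in EDL and were at least 1053-fold and 718-fold higher in IF. Both were nearly confined to IF. Crabp2 had no read in TA or PL and 1 in GS, and Reg3b had none in TA, PL or GS. Chrna3, a nicotinic receptor subunit, had 2 reads in EDL and was at 70.2, 57.7 and 57.4 CPM in IF, where the level was 796 times as high (95% counting interval 220.0 to 6579). Such floors and intervals cover counting error only. Chrna3 was also scarce in TA, with 4 reads, and in PL, with 33, while GS held 654. Isl1 (-8.85 ± 1.30), Foxp1 and Pcp4l1 (-3.62 ± 0.57) were lower too, as were the cytokine receptor Lifr, at 343, 348 and 263 CPM in EDL against 1471, 1268 and 1438 in IF (-2.13 ± 0.34, edgeR adjusted p = 0.00499), the cadherin Cdh12 (-2.78 ± 0.52, edgeR adjusted p = 0.0261), Fgf13 (-2.25 ± 0.36, edgeR adjusted p = 0.00637), Dpp10 and Sst. Lifr, Cdh12 and Dpp10 were low in other pools as well. Mean Lifr was 318 CPM in EDL, 233 in TA, 244 in GS and 833 in PL. Mean Cdh12 was 49.6 CPM in EDL, 38.45 in TA, 259 in PL and 250 in GS. Mean Dpp10 was 22.0 CPM in EDL, 29.4 in TA, 226.5 in PL and 113 in GS. The count was 15 without EDL 2, EDL 3 or IF 1, 16 without EDL 1, IF 2 or IF 3, and 44 without PL 3. Of the 21 genes named for this pair, 11 kept their call without each single library: Nts, Foxp1, Meis2, Sox6, Aldh1a2, Alcam, Isl1, Crabp2, Calca, Hoxc10 and Plxna2. Scg2 lost it without IF 1 and Lifr without EDL 3, Pcp4l1 and Fgf13 without 2 libraries each, Adra1b without 5, Reg3b, Chrna3, Cdh12 and Sst without 6 and Dpp10 without 10, with edgeR adjusted p up to 0.306.

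**Figure D4:**
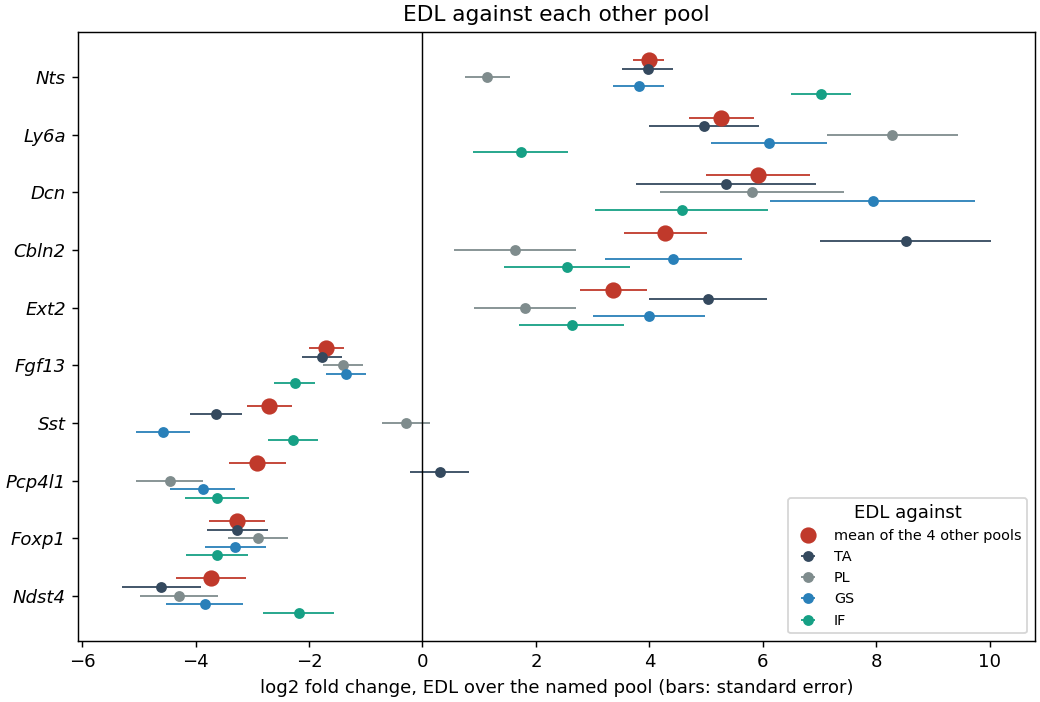
Log2 fold change of EDL over each other pool and over the mean of the 4, for 10 called genes; points are fitted values and bars standard errors. Sst lies near 0 against PL and Pcp4l1 lies near 0 against TA, while Foxp1 and Ndst4 lie below 0 and Ly6a and Dcn above 0 against all 4 pools.

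Other lists held no called gene against the 4 pools. Of 19 tested neurotrophic factor and receptor genes, 12 had a log2 fold change below 0, with a median of -0.43 against 0.06 for all genes. Of 9 tested acetylcholine genes, 7 were below 0, with a median of -0.58, and Chrm2, a muscarinic receptor, was at 127, 148 and 205 CPM in EDL and 241 to 664 CPM elsewhere, without overlap (-1.26 ± 0.31, edgeR adjusted p = 0.174). Among 13 markers of alpha, gamma, fast and slow motor neurons, 5 had a log2 fold change above 0 and 8 below. Esrrg, known from gamma motor neurons, was the 1 without overlap, by a narrow margin. It stood at 157, 240.9 and 219 CPM in EDL and 241.8 to 670 CPM in the others (edgeR adjusted p = 0.363). Of 23 tested axon guidance receptors, 13 had a log2 fold change above 0 and 10 below, with a median of 0.11. Unc5c, a netrin receptor, at 86.3, 33.6 and 59.5 CPM in EDL and 120 to 487 elsewhere, and Robo1, a Slit receptor, at 52.8, 143 and 123 CPM in EDL and 173 to 364 elsewhere, lay below all others without being called (edgeR adjusted p = 0.176 and 0.244). Among all tested genes, 0.237% lay below in this way. The 15 tested cadherins and the 11 tested genes of peptide processing and granins also held no call.

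Among the next by p after the called genes, and not called, were Meis2, Prrxl1, Col8a1, Gm15631, Btbd11, Sox6, Vip, Aldh1a2 and Mrc2, with edgeR adjusted p from 0.0524 to 0.0641. Prrxl1, a homeodomain factor, was at 25.6, 10.6 and 35.5 CPM in EDL and 0 to 5.80 CPM elsewhere, and Btbd11 at 42.7 to 54.2 CPM in EDL and 71.9 to 437 CPM elsewhere, both without overlap. Mrc2 was high in EDL 1 alone, at 114, 1.47 and 1.38 CPM, and Gm15631 was highest there too. Vip, the precursor of vasoactive intestinal peptide, ranked here although its highest pool was IF, and was at 1.39, 16.4 and 1.00 CPM in EDL, against 47.4, 54.9 and 63.4 in IF and 1 read in TA, PL and GS together. Col8a1 was also highest in IF, at a mean of 155 CPM, against 2.78, 1.92 and 50.9 CPM in EDL. Sox6 and Aldh1a2 had their highest means in PL, at 268.5 and 746 CPM, against 152 and 365 in EDL.

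The authors' deposited table of each pair, made by their own test, was longer than the edgeR calls. It held 80 genes higher in EDL than in IF, 24 higher than in TA and 8 higher than in PL. The 15 and 2 edgeR calls higher than IF and PL were all in the authors' deposited table, as were 5 of the 7 higher than TA, which made up 18.8%, 25% and 20.8% of the authors' deposited lists for IF, PL and TA. In the other direction, the authors' deposited table held 44 genes higher in IF, 20 in TA and 33 in PL, sharing 14, 4 and 1 with the edgeR calls. For Nts the authors' deposited table gave mean normalized counts of 4208 in EDL and 32.3 in IF (the authors' adjusted p = 2.04e-48) and of 10850 in EDL and 677 in TA. Smpd3, Dcn and Ly6a were in the authors' deposited table as higher in EDL than in IF, PL and TA. No such table was used here for GS.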

How the data were processed

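Per the labels' protocols, laser-captured motor neurons gave cDNA by the Ovation RNA-Seq V2 kit, Nextera libraries, which do not mark strand, sequenced from one end. The submitters' processing notes name Bowtie 0.12.9, mm9 and DESeq. For the gene counter and gene models, the sources used here give no name. The table holds, as deposited by the authors, raw counts per gene for 15 libraries and 36814 genes, of which 16357 had no read. The authors' deposited lists of each pair hold mean normalized counts, a signal scaled per pair, with p-values from their own test. Replicate libraries differed by more than sampling noise.

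Genes with any count below 0 (4 genes, 16 values) were left out. With edgeR 4.0.16 in R 4.3.3, genes were filtered by filterByExpr, scaled by TMM and fitted in one quasi-likelihood model with a coefficient per pool. EDL was tested against the mean of the 4 others and against each, with Benjamini-Hochberg adjustment over 14340 genes, threshold 0.05. Levels are CPM. Named genes were those called against the 4 pools, the next 10 by p (1 of them is not reported here), up to 5 per direction and pair with the largest fold among called genes without overlap (clone names only counted), called list members, and the motor column genes and peptide receptors; other list members named beside them were picked after their values were seen. The members and lists were chosen with earlier results of these data known. Lists are described by counts and medians. A fold against a pool at 0 used 3 reads over that pool. The model was tested on simulated data. Alternatives were DESeq2 1.42.0, limma voom 3.58.1, RLE scaling, other filters, robust fitting, the replicate number as a block, and libraries left out. The lists not involving EDL were not used here. Promoters come from RefSeq on GRCm38.p6, whose coordinates are kept apart from mm9.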

Additional observations from a re-analysis of the deposited data

How the results depend on the processing

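Against the mean of the 4 pools, where edgeR called 14 genes, DESeq2 called 69 (32 higher and 37 lower), limma voom 38 (32 and 6), the fit without a low-count filter 238 (210 and 28), and the fit without PL 2 and PL 3 28 (15 and 13). Against TA (13 calls) these settings gave 210, 55, 74 and 70. Against PL (7 calls) DESeq2 gave 650, no filter 355 and leaving out PL 2 and PL 3 2. Against GS (10 calls) they gave 64, 22, 40 and 31, and against IF (29 calls) 96, 86, 63 and 68. The cause of these shifts was not tested. With the replicate number as a block, 7 genes were called against the mean of the 4 pools and 4 against TA, and the counts for the other pairs stayed within 1.5 times. Of 30 pairs of libraries with the same number, 1 had deviations correlated above 0.1 (median r 0.00265), and 6 of 15 libraries correlated best with their own number. Whether libraries with the same number share animals or a batch cannot be told from these values, since the labels do not tie libraries to animals. Leaving out each library in turn gave 2 to 25 calls against the 4 pools, 2 to 32 against TA, 0 to 1778 against PL, 3 to 20 against GS and 15 to 44 against IF. Of 1630 values of 71 gene results under all alternatives, 1323 kept their direction and side of the threshold, 266 lost their call, 41 gained one and 0 reversed. Nts and Ly6a, against the 4 pools, kept theirs in all. With 3 pools of cells per muscle and a common dispersion of 0.789, small differences could not be detected.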

Other observations

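Genes chosen after their values were seen, none of them called, also stood apart from all 12 other libraries. Gabrq, the theta subunit of the GABA-A receptor, was at 152, 208 and 248 CPM in EDL and 0.319 to 48.5 CPM elsewhere (edgeR adjusted p = 0.0938). Synpr, the synaptic vesicle protein synaptoporin, was at 8.46, 11.4 and 21.1 CPM in EDL and 0 to 5.79 CPM elsewhere (0.0921). The orexin receptor Hcrtr1 was at 17.5, 38.0 and 26.3 CPM in EDL and 0 to 14.3 CPM in the others (0.176). Calb2, the calcium buffer calretinin, was at 54.5, 50.9 and 45.3 CPM in EDL and 0 to 34.2 CPM in the others (0.474).

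On the low side, the potassium channel partner Kcnip4 was at 1.27, 5.997 and 28.5 CPM in EDL and 45.8 to 267 CPM elsewhere (edgeR adjusted p = 0.144). Rgs4, a regulator of G-protein signals, was at 76.7, 104 and 77.6 CPM in EDL and 152 to 640 CPM elsewhere (0.152). Of all tested genes, 60 lay above and 34 below in this way (0.418% and 0.237%).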
